A study of Mus musculus with 2 samples.

Results

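Dividing CD8+ T cells that carried transcripts of several low-oxygen genes were set apart within the HC library of a single-cell RNA study of mouse lymph node. A UMI (unique molecular identifier) stands for 1 captured RNA molecule, and kept cells had 500 or more genes found, 1000 or more UMIs and no more than 10% mitochondrial UMIs. A kept HC cell was called a hypoxia-programme dividing cell, or programme cell, when it had at least 1 UMI of at least 3 of the 7 genes Bnip3, Slc16a3, Ankrd37, Mgarp, Egln3, Aldoc and Ndrg1, and at least 4 UMIs of Mki67 and Top2a together. There were 2051 such cells among 13617 kept HC cells (15.1%, exact 95% binomial interval 14.5 to 15.7) and among 7646 dividing HC cells (26.8%, 25.8 to 27.8), out of 27258 kept cells in the series. They were compared with 4445 dividing HC cells that had at most 1 of the 7 genes, here called comparison dividing cells or comparison cells. A further 1150 dividing HC cells had exactly 2 of the 7 genes and belong to neither group.

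The study compares murine CD8+ T cells with and without electrical stimulation through the matrix. It has 2 libraries, labelled HC and NC, 1 per group. What the letters stand for, and which library was stimulated, is not in the labels. Neither are strain, genotype, age, the number of animals or the length and form of the stimulation.

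Because all cells of a group come from 1 library, cells are not replicates and no test was run. Intervals in brackets are exact 95% intervals, Poisson for levels and binomial for shares and log2 ratios, and cover counting error only. The same counts chose the cells, so every difference between hypoxia-programme and comparison dividing cells is a description of the chosen cells. The same rule in the NC library is given beside them.

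When oxygen is scarce, prolyl hydroxylases no longer mark the HIF alpha proteins for destruction by the VHL ubiquitin ligase, and HIF paired with ARNT switches on genes of glycolysis, lactate export and mitochondrial turnover. In CD8+ T cells HIF-1 alpha is also raised by antigen receptor and interleukin-2 signals, and dividing effector T cells are known for high glycolysis. Bnip3 directs mitochondria to degradation, Slc16a3 is the lactate exporter MCT4, Egln3 is a HIF prolyl hydroxylase, Aldoc is a glycolytic aldolase, Mgarp is a mitochondrial protein, and Ankrd37 and Ndrg1 are induced in hypoxia. Mki67 marks cycling cells and Top2a untangles replicated DNA.

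HIF binds DNA at the core ACGTG or GCGTG. The 250 bases before the start of transcription, from RefSeq on build GRCm38.p6, held that core on at least 1 strand in 38.6% of 32807 start sites, at least 2 separate runs of it in 13.4% and at least 3 in 4.56%. Of the 7 rule genes, 6 were found in the promoter table, and each had at least 1 match. The promoters of 3 rule genes with more than 1 run, and that of P4ha2, the gene outside the rule with the largest ratio among HIF targets, are printed 5′ to 3′ on the gene's strand. Capitals mark each ACGTG or GCGTG on either strand, where CACGT and CACGC are the reverse-strand forms and touching or overlapping matches join into 1 run.
Bnip3 (chr7:138909507-138909756, minus strand): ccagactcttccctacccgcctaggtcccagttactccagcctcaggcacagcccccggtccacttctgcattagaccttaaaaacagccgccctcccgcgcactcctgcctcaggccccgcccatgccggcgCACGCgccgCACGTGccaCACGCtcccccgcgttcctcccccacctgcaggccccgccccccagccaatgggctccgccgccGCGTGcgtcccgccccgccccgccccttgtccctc
Slc16a3 (chr11:120948817-120949066, plus strand): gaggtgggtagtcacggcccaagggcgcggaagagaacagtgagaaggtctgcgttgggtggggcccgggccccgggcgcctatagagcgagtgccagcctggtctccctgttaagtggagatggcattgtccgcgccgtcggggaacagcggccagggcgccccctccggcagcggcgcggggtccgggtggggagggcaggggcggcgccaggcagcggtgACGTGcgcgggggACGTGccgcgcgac
Ankrd37 (chr8:45999851-46000100, minus strand): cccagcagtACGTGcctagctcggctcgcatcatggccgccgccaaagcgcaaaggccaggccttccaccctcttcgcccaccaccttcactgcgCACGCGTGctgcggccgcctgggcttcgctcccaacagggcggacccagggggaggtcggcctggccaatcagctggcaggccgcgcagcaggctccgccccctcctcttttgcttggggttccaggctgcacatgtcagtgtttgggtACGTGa
P4ha2 (chr11:54100674-54100923, plus strand): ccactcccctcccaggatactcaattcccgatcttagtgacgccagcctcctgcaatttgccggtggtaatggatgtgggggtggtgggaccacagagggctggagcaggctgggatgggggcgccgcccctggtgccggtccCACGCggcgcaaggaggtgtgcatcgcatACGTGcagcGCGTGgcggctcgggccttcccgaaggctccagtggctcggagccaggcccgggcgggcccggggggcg
The Bnip3 promoter had 4 runs, Ankrd37 and P4ha2 had 3 each and Slc16a3 had 2. Mgarp, Egln3 and each of the 2 start sites of Aldoc had 1 run. A match is a stretch of letters, and no binding was measured.

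The hypoxia-programme dividing cells were deeper than the cells they were compared with. Their median was 12011 UMIs and 3017 genes per cell, against 8480 UMIs and 2416 genes in comparison dividing cells, and 27395084 UMIs were summed over the hypoxia-programme cells against 40035365 over the comparison dividing cells. The share of hypoxia-programme cells among dividing HC cells was 8.44% in the shallowest of 5 equal depth classes and 54.2% in the deepest. A cell with more UMIs has more chances to show at least 3 of 7 genes, and the part of depth in the differences below was not tested beyond the alternatives given beside them. Of all barcodes, 64 were the same in both libraries, and 8 hypoxia-programme cells shared a kept barcode with NC. Doublets were not removed, and without the 2% of HC cells with most UMIs 1851 hypoxia-programme cells remained.

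The label was checked against markers of the cell type. At least 1 UMI of Cd8a or Cd8b1 and none of Cd4 was found in 2031 of 2051 hypoxia-programme cells (99.0%, 98.5 to 99.4) and 4386 of 4445 comparison dividing cells (98.7%, 98.3 to 99.0). No cell type that should lack CD8 was set apart, so the share that free RNA gives was not measured. Summed over 6 CD8+ T cell markers the level was 3657 CPM (UMIs per 1000000 UMIs of the summed cells) in hypoxia-programme cells and 3701 CPM in comparison dividing cells. Cd8b1, the beta chain of CD8, stood at 428 CPM in programme cells against 534 CPM in comparison cells, Cd8a at 217 against 237 CPM, and Cd3e, a chain of the T cell receptor complex, at 310 against 297 CPM.

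Markers of other cells were at or near 0, with a few exceptions. All 4 neutrophil markers were at 0 in hypoxia-programme cells. Of 8 macrophage and monocyte markers, 5 (Csf1r, C1qa, C1qb, Lyz2 and Adgre1) were at 0 in both groups, and the list summed to 4.09 CPM in programme cells against 5.10 CPM in comparison cells. The B cell list summed to 13.7 CPM in programme cells against 13.5 CPM in comparison cells with Ms4a1 and Pax5 at 0 in hypoxia-programme cells, and the natural killer list to 6.86 against 7.32 CPM with Ncr1 at 0 in both. The CD4 and regulatory list stood at 4.89 CPM in programme cells against 4.45 CPM in comparison cells, nearly all Ikzf4. Plasma cell, mast cell and erythroid lists lay under 1 CPM in both groups. The gamma-delta list summed to 90.6 CPM in programme cells against 125 CPM in comparison cells, of which Trdc, a gamma-delta receptor constant gene, was 88.8 against 122 CPM. The endothelium list summed to 33.4 CPM in programme cells against 40.2 CPM in comparison cells, of which Pecam1 was 33.0 against 39.9 CPM. The dendritic list summed to 79.1 CPM in programme cells against 19.3 CPM in comparison cells, of which H2-Ab1 was 77.7 against 17.3 CPM, with Siglech and Clec9a at 0 in both.

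**Figure D1:**
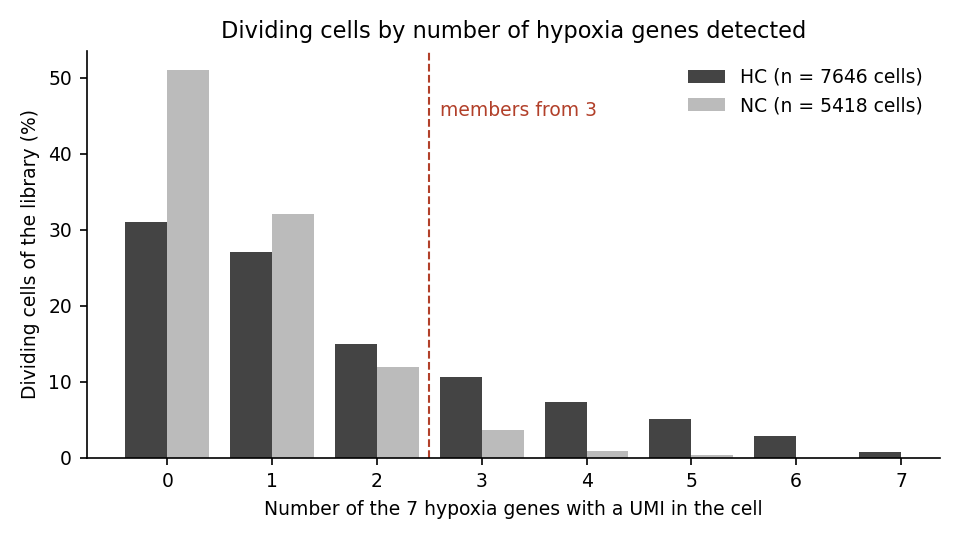
Dividing cells of the HC (dark) and NC (light) libraries by how many of the 7 hypoxia genes had a UMI in the cell, as a percentage of the dividing cells of each library. The dashed line marks the border of the rule at 3 genes. HC cells reach 7 genes (58 cells), while NC has 18 cells with 5, 1 with 6 and none with 7.

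Most hypoxia-programme cells had 3 or 4 of the 7 genes, near the border of the rule. There were 814 with exactly 3 of the 7 genes (39.7%), 564 with 4, 391 with 5, 224 with 6 and 58 with all 7 (2.83%). The plot of dividing cells by number of genes shows a steady decline with no gap at 3, so the cells are a range cut from a count of detected genes. Median depth was 8007 UMIs in dividing HC cells with none of the 7 genes, 11292 in those with 3 and 14766 in those with 7.

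The 7 genes were set by the rule, and their levels are given as a description only. Bnip3 stood at 106 CPM (102 to 110) in hypoxia-programme cells and 6.72 CPM (5.94 to 7.57) in comparison dividing cells, Slc16a3 at 133 against 15.5 CPM, and Ankrd37 at 92.5 against 11.2 CPM. Mgarp stood at 34.4 CPM in programme cells against 1.85 CPM in comparison cells, Egln3 at 54.9 against 7.12 CPM, Aldoc at 71.7 against 9.57 CPM, and Ndrg1 at 52.8 against 7.42 CPM. In cells just inside the rule, with exactly 3 genes, Bnip3 was at 66.6 CPM, against 32.3 CPM in cells just outside, with exactly 2. Across that border Slc16a3 was at 99.1 CPM in cells with exactly 3 against 63.5 CPM in cells with exactly 2, and Mgarp at 16.9 against 6.82 CPM. The division genes, for which both groups had to pass the same minimum, were Mki67 at 660 CPM in programme cells against 751 CPM in comparison cells and Top2a at 960 against 1165 CPM.

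Some pairs of the 7 genes were found together more often than others. Slc16a3 and Ankrd37 shared 1297 dividing HC cells, which is 47.4% of the cells with Slc16a3 and 58.2% of those with Ankrd37. Slc16a3 was found in 35.8% of all dividing HC cells and Ankrd37 in 29.1%, the highest shares of the 7 genes. Bnip3 and Slc16a3 shared 1281 cells, which is 63.5% of the cells with Bnip3 and 46.8% of those with Slc16a3. Mgarp, found in 11.3% of dividing HC cells, had Slc16a3 beside it in 68.9% of its cells, while Slc16a3 was in 35.8% of all dividing HC cells. The part of depth in these shared cells was not tested.

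The same rule found fewer cells in the NC library. It took 26.8% of dividing HC cells, against 267 of 5418 dividing NC cells (4.93%, 4.37 to 5.54), and left 4503 NC comparison cells. The median depth was 12011 UMIs in the HC cells that passed and 19347 UMIs in the NC cells that passed, and 8480 UMIs in HC and 10157 UMIs in NC comparison cells. With each cell thinned to 5000 UMIs, 821 of 7285 dividing HC cells (11.3%, 10.6 to 12.02) and 28 of 4799 dividing NC cells (0.583%, 0.388 to 0.842) passed, and 361 HC and 619 NC cells were too shallow to be used. The HC share was the higher one with and without thinning. With 1 library per group, library and condition cannot be told apart.

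The share of HC cells with the hypoxia genes, by division, turned with depth. At least 3 of the 7 genes were found in 26.8% of dividing HC cells, against 378 of 2911 HC cells with no UMI of Mki67 or Top2a (13.0%, 11.8 to 14.3). After thinning to 5000 UMIs the share was 11.3% in dividing cells and 15.4% (13.6 to 17.4) in cells without those UMIs, with 1524 of the shallow non-dividing cells left out. No order is read from these shares.

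Outside the 9 rule genes, relatively few genes differed in size between the HC groups, and most of those were higher in hypoxia-programme cells. Of 8646 genes that reached 5 CPM in 1 or both groups, 167 (1.93%) were at least 1.5-fold higher in hypoxia-programme cells and 30 (0.347%) at least 1.5-fold lower. The median log2 ratio of all of them was -0.01. With comparison cells weighted to the same depth distribution, 121 genes were higher and 28 lower. Without the 2% of HC cells with most UMIs 174 were higher and 34 lower, and without the barcodes shared with NC 165 were higher and 30 lower.

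Genes known as HIF targets were higher in hypoxia-programme cells throughout the list. Of 30 genes listed, not counting the rule genes, 24 reached 5 CPM in either group. Of these, 19 were at least 1.5-fold higher, 0 lower and all 24 above 0, with a median log2 ratio of 1.05 against -0.01 over all genes. P4ha2, Ak4 and Vegfa reached 5 CPM only in hypoxia-programme cells and so could only enter the count as higher.

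The hydroxylases P4ha2, P4ha1, Egln1 and Plod2 of the list were each at least 1.5-fold higher. P4ha2, a subunit of collagen prolyl hydroxylase, was at 9.56 CPM in hypoxia-programme cells and 1.10 CPM in comparison dividing cells, a log2 ratio of 3.12 (2.66 to 3.62). P4ha1, the sister subunit, was at 51.6 CPM in programme cells against 23.2 CPM in comparison cells, and Egln1, the main HIF prolyl hydroxylase, at 181 against 79.8 CPM. Plod2, which hydroxylates lysines of collagen, was at 17.5 CPM in programme cells against 6.74 CPM in comparison cells. Egln2, a HIF prolyl hydroxylase of the HIF pathway list, was at 33.9 CPM in programme cells against 32.5 CPM in comparison cells, a log2 ratio of 0.06 (-0.06 to 0.18).

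Signals, lipid droplets and mitochondria were also represented. Vegfa, the secreted growth factor for blood vessels, was at 9.42 CPM in programme cells against 2.27 CPM in comparison cells, a log2 ratio of 2.05 (1.70 to 2.41). Hilpda, a lipid droplet protein that restrains lipolysis, was at 78.9 CPM in programme cells against 25.5 CPM in comparison cells, and Ak4, a mitochondrial adenylate kinase, at 7.05 against 1.37 CPM. The mitochondrial proteins Fam162a (396 CPM in programme cells against 135 CPM in comparison cells) and Higd1a (263 against 123 CPM), the mitophagy receptor Bnip3l (255 against 127 CPM) and Pdk1, which inhibits pyruvate dehydrogenase (60.3 against 31.7 CPM), followed. Gys1 and Gbe1, which build glycogen, had log2 ratios of 0.99 and 1.12. The smallest ratios of the list were 0.17 for Wsb1, 0.31 for Cited2 and 0.35 for Narf.

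The counted genes of the HIF pathway list hardly differed. They do not include the HIF prolyl hydroxylases Egln1, counted with the HIF targets, and Egln3, a rule gene. Egln1 was at 181 CPM in programme cells against 79.8 CPM in comparison cells, and Egln3, chosen on by the rule, at 54.9 against 7.12 CPM. Hif1a was at 198 CPM in hypoxia-programme cells and 197 CPM in comparison dividing cells, a log2 ratio of 0.01 (-0.04 to 0.06). Of 8 HIF pathway genes counted, 0 were past 1.5-fold and the median was 0.03, with Vhl, which marks HIF for destruction, at 0.35, Cul2 at 0.21, Arnt at -0.11 and Hif1an at -0.09. HIF protein was not measured.

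**Figure D2:**
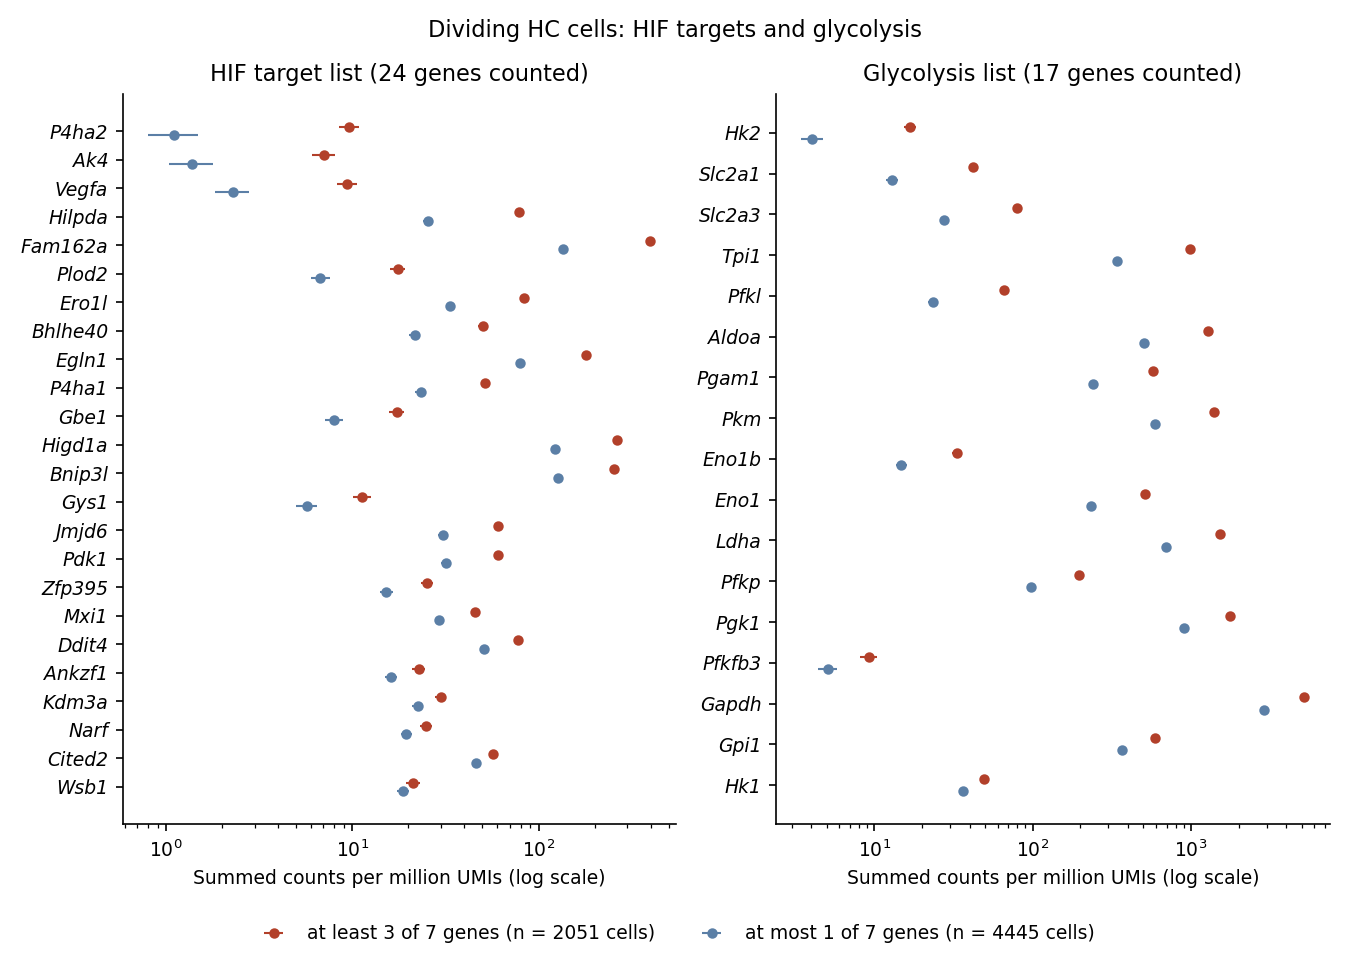
Summed level of each counted gene of the HIF target list (left) and glycolysis list (right) in hypoxia-programme dividing cells (red) and comparison dividing cells (blue) of HC, in CPM on a log axis, with exact 95% Poisson intervals. Every red point lies right of its blue point, from P4ha2 (9.56 CPM in programme cells against 1.10 CPM in comparison cells) to Wsb1, and from Hk2 (16.8 CPM in programme cells against 4.05 CPM in comparison cells) to Hk1.

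Glycolysis genes were higher in programme cells along the whole pathway. Of 20 genes listed, 17 were counted, 16 were at least 1.5-fold higher in hypoxia-programme cells, 0 lower, and the median log2 ratio was 1.17. The exception was the hexokinase Hk1, at 48.9 CPM in programme cells against 36.2 CPM in comparison cells and a ratio of 0.43, while Hk2, the inducible hexokinase, was at 16.8 against 4.05 CPM and a ratio of 2.06 (1.79 to 2.32). Hk2 was under 5 CPM in comparison dividing cells.

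Glucose uptake came first in the pathway and was among the highest ratios. Slc2a1, the transporter GLUT1, was at 42.1 CPM in programme cells against 12.9 CPM in comparison cells (log2 ratio 1.70) and Slc2a3, the transporter GLUT3, at 79.9 against 27.4 CPM (1.54). Pfkl, the liver-type phosphofructokinase, was at 65.9 CPM in programme cells against 23.3 CPM in comparison cells, 2.83-fold higher.

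The later enzymes followed in the same direction. Tpi1, which interconverts the triose phosphates, was at 986 CPM in programme cells against 341 CPM in comparison cells (1.53), Aldoa, an aldolase, at 1279 against 505 CPM, and Gapdh at 5187 against 2879 CPM. Pgk1, the first step that yields ATP, was at 1769 CPM in programme cells against 906 CPM in comparison cells, and Pkm, which makes pyruvate, at 1398 against 594 CPM. Ldha, which turns pyruvate into lactate, was at 1531 CPM in programme cells against 698 CPM in comparison cells. Eno1 (1.14) and Eno1b (1.17), an intronless copy, may share reads and are uncertain apart.

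Galk1, which feeds galactose into glycolysis, was at 166 CPM in programme cells against 58.5 CPM in comparison cells, and Pgm1, a phosphoglucomutase, at 46.7 against 16.8 CPM. Bsg, the chaperone of lactate transporters including MCT4, was at 489 CPM in programme cells against 243 CPM in comparison cells, a log2 ratio of 1.01, and was the 1 gene of 11 counted in the pyruvate and lactate list past 1.5-fold. Its other members included Ldhb at 0.48, Me2 at 0.39 and Pdk3 at 0.32, and the list median was 0.14.

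The glycolysis difference was wide over cells and present at every depth and cell cycle phase examined. Cells were thinned to 5000 UMIs and the glycolysis list was summed in each cell. The median was 74 UMIs (10th to 90th percentile 40 to 105) in 2038 hypoxia-programme cells and 31 UMIs (20 to 53) in 4128 comparison dividing cells. Of the hypoxia-programme cells 77.0% lay above the 90th percentile of the comparison and 4.47% at or below its median. By depth class from shallow to deep the median log2 ratio of the list was 1.59, 1.53, 1.22, 1.20 and 0.79, and that of the HIF targets was 1.37, 1.39, 1.15, 1.19 and 0.82.

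Cells were also split by the share of G2/M list UMIs among S and G2/M list UMIs, at the 2 bounds (64.9% and 79.2%) that divide the hypoxia-programme cells into 3 equal parts. In the part weighted to S phase the glycolysis genes summed to 14133 CPM in hypoxia-programme cells and 7460 CPM in comparison dividing cells. In the middle part they summed to 14255 CPM in programme cells against 6860 CPM in comparison cells, and in the part weighted to G2/M to 14637 against 6499 CPM.

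**Figure D3:**
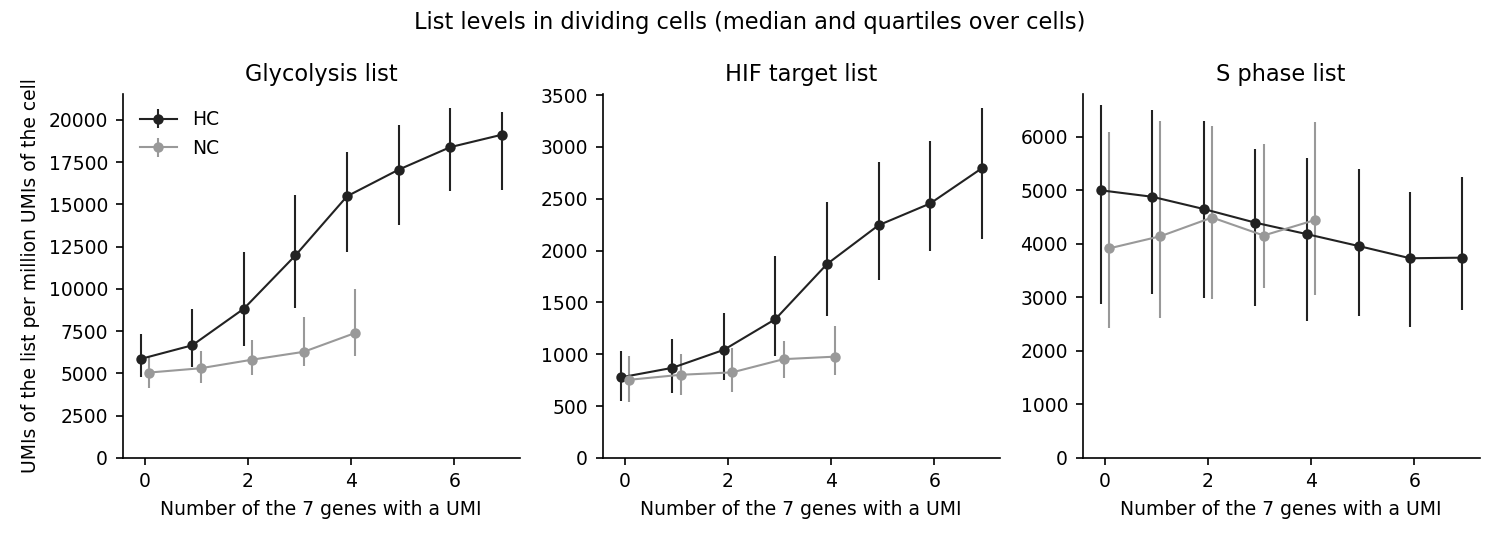
Summed UMIs of the glycolysis, HIF target and S phase lists per 1000000 UMIs of the cell, as the median over dividing cells with quartile bars, by number of the 7 genes with a UMI, in HC (dark) and NC (grey). In HC the glycolysis median runs from 5852 at 0 genes to 19115 at 7, and in NC from 5045 at 0 to 7390 at 4. NC bins of 5 and 6 genes hold 18 and 1 cells and are not drawn.

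Within HC the levels followed the number of the 7 genes in steps. The median glycolysis level per cell was 5852 UMIs per 1000000 at 0 genes, 11978 at 3, 15476 at 4 and 19115 at 7. The HIF target level was 776 at 0 genes, 1339 at 3 and 2793 at 7. The S phase level went the other way, with 5003 at 0 genes, 4397 at 3 and 3743 at 7. Median depth rose with the number of genes too, and its part in these steps was not tested.

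Cell cycle genes were slightly lower in hypoxia-programme cells. All 46 S phase genes lay below 0, with a median log2 ratio of -0.21 and 0 past 1.5-fold. Among them were Ccne2 at -0.49, Rrm2, a subunit of the enzyme that makes deoxynucleotides, at 193 CPM in programme cells against 257 CPM in comparison cells (-0.42), Clspn at -0.41 and Wdr76 at -0.41. The 53 G2/M genes had a median of -0.08, with 41 below 0 and 0 past 1.5-fold. Among 13 cyclins and inhibitors counted, the median was -0.21 and 0 were past 1.5-fold, with Cdkn2c at -0.53, Rbl1 at -0.45 and E2f2 at -0.33. Over 16 alternatives the S phase median ran from -0.26 to -0.09 and the G2/M median from -0.16 to -0.006. The median of cyclins and inhibitors ran from -0.26 to -0.04. The rule's own minimum of Mki67 and Top2a shaped both groups, and the median share of G2/M UMIs was 72.6% in hypoxia-programme cells and 69.8% in comparison dividing cells.

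Transcripts of respiratory chain and citric acid cycle genes did not share the shift of glycolysis genes, and respiration itself was not measured. The 30 nuclear genes of the respiratory chain had a median log2 ratio of 0.04, the 17 genes of the citric acid cycle 0.02, and the 14 mitophagy and autophagy genes 0.03, each with 0 past 1.5-fold. The largest of these were Atp5g1 at 0.25, Idh2 at -0.22 and Tax1bp1 at -0.16. The 14 mitophagy and autophagy genes include neither Bnip3, a rule gene, nor the mitophagy receptor Bnip3l, which was counted with the HIF targets. Bnip3, chosen on by the rule, was at 106 CPM in programme cells against 6.72 CPM in comparison cells. Bnip3l was at 255 CPM in programme cells against 127 CPM in comparison cells. Of 13 mitochondrially encoded genes 12 lay below 0, with a median of -0.11, and mt-Co3, a subunit of cytochrome oxidase, was at 8250 CPM in programme cells against 9695 CPM in comparison cells. The median mitochondrial share of UMIs per cell was 3.9% in programme cells and 4.38% in comparison cells.

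Activation and effector genes were higher in part. Of 20 activation and co-stimulation genes counted, 4 were at least 1.5-fold higher, 0 lower, and the median was 0.31. They were the co-stimulatory receptors Tnfrsf4 (OX40), at 74.1 CPM in programme cells against 23.8 CPM in comparison cells (1.64), and Tnfrsf9 (4-1BB), at 77.6 against 28.0 CPM (1.47), the transferrin receptor Tfrc, at 119 against 67.2 CPM (0.83), and the early response factor Egr3 (0.60). Under the alternatives Tfrc came as near to 0 as 0.48 and Egr3 as 0.26, both under 1.5-fold, while Tnfrsf4 stayed at or above 1.07 and Tnfrsf9 at or above 0.85. Il2ra, the high-affinity interleukin-2 receptor chain, was at 62.2 CPM in programme cells against 42.0 CPM in comparison cells, a log2 ratio of 0.57. By depth class, from shallow to deep, the Il2ra ratio was -0.22, 0.28, 0.10, 0.33 and 0.25, and it was 0.25 at the lowest of its alternatives.

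Factors of effector differentiation gave 3 of 13 genes past 1.5-fold, 0 lower and a median of 0.28. Bhlhe40, also a HIF target, was at a log2 ratio of 1.21 (1.08 to 1.33), Prdm1, which drives terminal differentiation, at 8.54 CPM in programme cells against 5.15 CPM in comparison cells (0.73), and Nfil3 at 10.4 against 6.47 CPM (0.69). All 3 stayed past 1.5-fold over the 14 alternatives run for them. By depth class, from shallow to deep, Prdm1 was at 1.32, 0.80, 0.24, 0.87 and 0.66, under 1.5-fold in the middle class.

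Killing genes were led by Gzmb and Prf1. Gzmb, a protease delivered into target cells, was at 549 CPM in programme cells against 300 CPM in comparison cells (0.87, 0.84 to 0.91), and Prf1, which forms the pore, at 13.3 against 6.09 CPM (1.12). These 2 of 15 counted cytotoxic genes were past 1.5-fold, 0 were lower, and the list median was 0.07. With the comparison cells weighted to the same depth Gzmb was at 0.34 and Prf1 at 0.51, both under 1.5-fold. Gzma was at 21.0 CPM in programme cells against 26.0 CPM in comparison cells.

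Inhibitory genes gave 2 of 8 past 1.5-fold, Nr4a1 (0.62) and Nr4a2 (0.61), with a median of 0.23. Neither held 1.5-fold under every alternative, with lowest values of 0.10 and 0.37. Ctla4 was at 185 CPM in programme cells against 141 CPM in comparison cells, Lag3 at 103 against 87.1 CPM and Pdcd1, which encodes PD-1, at 30.5 against 26.2 CPM. Among 8 cytokine and chemokine genes counted, 1 was past 1.5-fold, Ccl3, at 3.43 CPM in programme cells against 5.62 CPM in comparison cells (-0.71, with -0.35 for thinned cells and -1.52 for depth weighting). Ccl3 reached 5 CPM only in comparison cells and so could only enter the count as lower. Ifng was at 2.88 CPM in programme cells against 1.90 CPM in comparison cells, a log2 ratio of 0.60, which was -0.05 with the comparison cells weighted by depth.

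**Figure D4:**
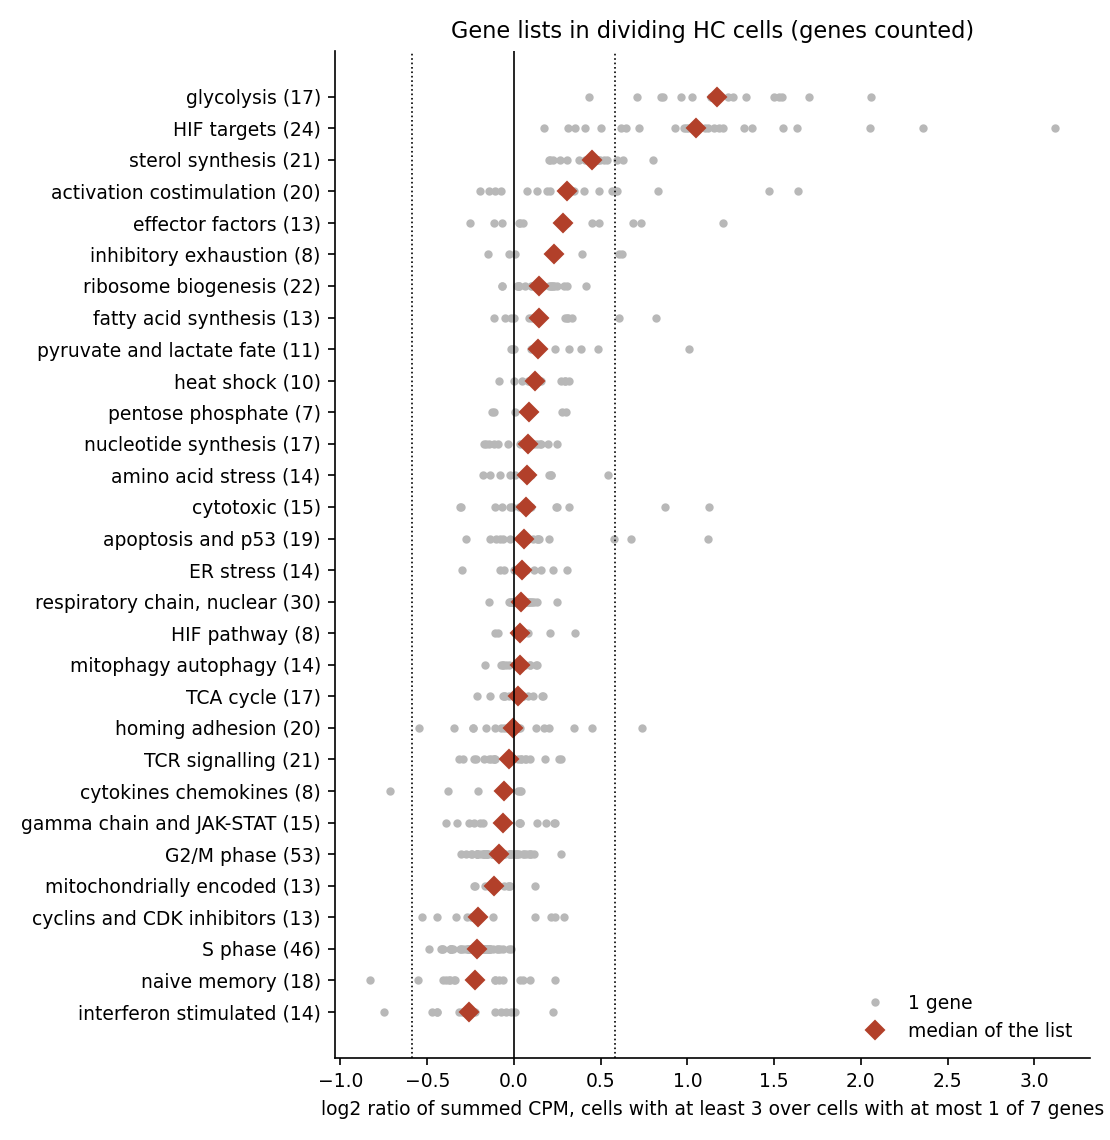
Log2 ratio of summed CPM, hypoxia-programme over comparison dividing cells of HC, for each counted gene (grey) of 30 gene lists, with the list median (red diamond) and the number of genes counted in brackets. Dotted lines mark 1.5-fold. Glycolysis (median 1.17) and HIF targets (1.05) lie apart from the other 28 lists, whose medians run from -0.26 to 0.45.

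Of 18 genes of naive and memory cells counted, 14 lay below 0, 1 was at least 1.5-fold lower, 0 higher, and the median was -0.23. Ly6c2 was at 80.3 CPM in programme cells against 143 CPM in comparison cells (-0.83), Tcf7, which encodes the self-renewal factor TCF-1, at 146 against 215 CPM (-0.55), S1pr1, the receptor for exit from lymph nodes, at 44.7 against 59.3 CPM (-0.41), and Cxcr3 at 36.0 against 47.2 CPM (-0.39). Ly6c2 came as near to 0 as -0.55, under 1.5-fold.

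Of 14 interferon-stimulated genes counted, 12 lay below 0, 1 was at least 1.5-fold lower, 0 higher, and the median was -0.26, or -0.10 with comparison cells weighted by depth. Under the same rule in NC, 4 of 15 were lower, with a median of -0.44. Ifi206 was at 21.6 CPM in programme cells against 36.2 CPM in comparison cells (-0.75, and -0.48 at the nearest to 0), Ifi27l2a at 495 against 672 CPM (-0.44), Irf7, a factor that raises interferon, at 7.05 against 9.59 CPM, and Ifi213 at 7.05 against 9.77 CPM. Among the 12 lowest genes of the whole comparison, Ifi203, Ifi206, Ifi209 and Ifi214 belong to the same gene family and may share reads. Ifi203 was at -0.60 and Ifi214 at -0.87, and Ifi203 came as near to 0 as -0.36, under 1.5-fold. Beside Ly6c2 and Tcf7, given above, the other lowest genes were Ms4a4c (-0.66, or -0.55 at the nearest to 0), Dapl1 (240 CPM in programme cells against 375 CPM in comparison cells, -0.64, or -0.49 at the nearest to 0), Arl4c, Trim12a, Herc6 and Sidt1, from -0.55 to -0.53 for the last 4.

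All 21 sterol synthesis genes lay above 0, with a median of 0.45 and 3 past 1.5-fold: Lss (0.80), Hmgcs1 (173 CPM in programme cells against 112 CPM in comparison cells, 0.63) and Msmo1 (0.59). Fdps was at 362 CPM in programme cells against 250 CPM in comparison cells (0.53). The 3 were at 0.49, 0.34 and 0.29 with comparison cells weighted by depth, under 1.5-fold. Of 13 fatty acid genes 4 lay below 0 and 2 were past 1.5-fold, the desaturase Scd1 (0.82) and the acyl-CoA ligase Acsl3 (0.61), with a median of 0.14 that was -0.01 with groups chosen on thinned counts. Both were under 1.5-fold with depth weighting (0.41 and 0.52).

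The remaining lists stayed close to the median of all genes. Ribosome biogenesis had a median of 0.14 and heat shock 0.12, which were -0.20 and -0.07 with depth weighting. Nucleotide synthesis, amino acid stress and ER stress, just above 0 here, were also below 0 with depth weighting, at -0.16, -0.11 and -0.14. Pentose phosphate was at 0.09, nucleotide synthesis at 0.08, amino acid stress at 0.08, apoptosis and p53 at 0.06 and ER stress at 0.05. Homing and adhesion was at -0.01, T cell receptor signalling at -0.03 and the gamma-chain and JAK-STAT list at -0.06. Single genes past 1.5-fold among them were Cdkn1a, the cell cycle inhibitor p21, at 23.6 CPM in programme cells against 10.9 CPM in comparison cells (1.12), Bcl2a1d (0.68), a near-identical copy of Bcl2a1b, and Anxa2, a membrane-binding protein, at 355 against 213 CPM (0.74). With depth and G2/M share weighted together Cdkn1a was at 0.54, and with depth weighted Bcl2a1d was at 0.17, both under 1.5-fold.

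H2-Ab1 had the largest ratio among genes that reached 20 CPM, with the rule genes, mitochondrial and ribosomal protein genes, predicted genes and receptor segments left out. It stood at 77.7 CPM (74.4 to 81.1) in hypoxia-programme cells and 17.3 CPM (16.0 to 18.6) in comparison dividing cells, a log2 ratio of 2.17, and Siglech and Clec9a, further dendritic markers, were at 0 in both. The metallothioneins Mt2 (24.3 CPM in programme cells against 7.67 CPM in comparison cells) and Mt1 (176 against 61.6 CPM) were among the next. H2-Ab1 encodes the beta chain of the class II molecule I-A of antigen-presenting cells. Its partner chain H2-Aa, looked up after these values were seen, had 0 UMIs in programme cells against 3 UMIs in comparison cells, and the class II activator Ciita had 1 against 2 UMIs.

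The same rule in the NC library gave smaller list medians for HIF targets and glycolysis. Among 8653 genes counted in NC 201 (2.32%) were at least 1.5-fold higher and 159 (1.84%) lower, in 267 NC cells against 4503 NC comparison dividing cells. Of 21 HIF targets counted in NC 3 were at least 1.5-fold higher, with a median of 0.29, and of 17 glycolysis genes 9 were, with a median of 0.68, against a median over all genes of 0.05. The chosen NC cells were deep, with a median of 19347 UMIs. In the deepest class of dividing HC cells, from 13339 UMIs up, the HIF target median was 0.82 and the glycolysis median 0.79. The part of depth in the smaller NC medians was not tested. Among the 43 named genes past 1.5-fold outside the rule in HC, 20 were at least 1.5-fold the same way in NC.

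Of the 17 glycolysis genes, 16 lay above 0 in NC, as all 17 did in HC. Tpi1 was at 476 CPM in the NC cells chosen by the rule and 232 CPM in NC comparison dividing cells (1.04), Pfkl at 46.5 against 19.9 CPM (1.22), Slc2a1 at 20.9 against 10.2 CPM (1.03) and Ldha at 1067 against 659 CPM (0.70). Tfrc, at 129 CPM in the chosen NC cells against 60.3 CPM in NC comparison cells (1.09), and Tnfrsf4, at 73.2 against 34.5 CPM (1.08), were past 1.5-fold there too. Gzmb was at 356 CPM in the chosen NC cells against 231 CPM in NC comparison cells (0.63) and Ly6c2 at 69.0 against 109 CPM (-0.66).

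Several other genes were closer to level in NC or rested on few UMIs there. H2-Ab1 was at 12.1 CPM in the chosen NC cells against 10.1 CPM in NC comparison cells (0.25, -0.14 to 0.62), Slc2a3 at 25.8 against 23.6 CPM (0.13), Bnip3l at 116 against 113 CPM and Hilpda at 33.5 against 26.7 CPM (0.32). P4ha2, with a log2 ratio of 3.12 in HC, rested in NC on 3 UMIs in the chosen cells and had a log2 ratio of 0.09 (-2.28 to 1.81). Ak4, at a log2 ratio of 2.34 (1.19 to 3.43) in NC, rested on 12 UMIs in the chosen cells and 21 UMIs in NC comparison cells, and Vegfa, at 1.74 (0.99 to 2.46), on 23 and 61 UMIs. All 3 were under 5 CPM in both NC groups and so are not among the 21 HIF targets counted there. S phase genes had a median of -0.21 in HC and 0.00 in NC, and ribosome biogenesis genes 0.14 in HC and 0.45 in NC. The differences between the libraries' ratios were not tested.

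**Figure D5:**
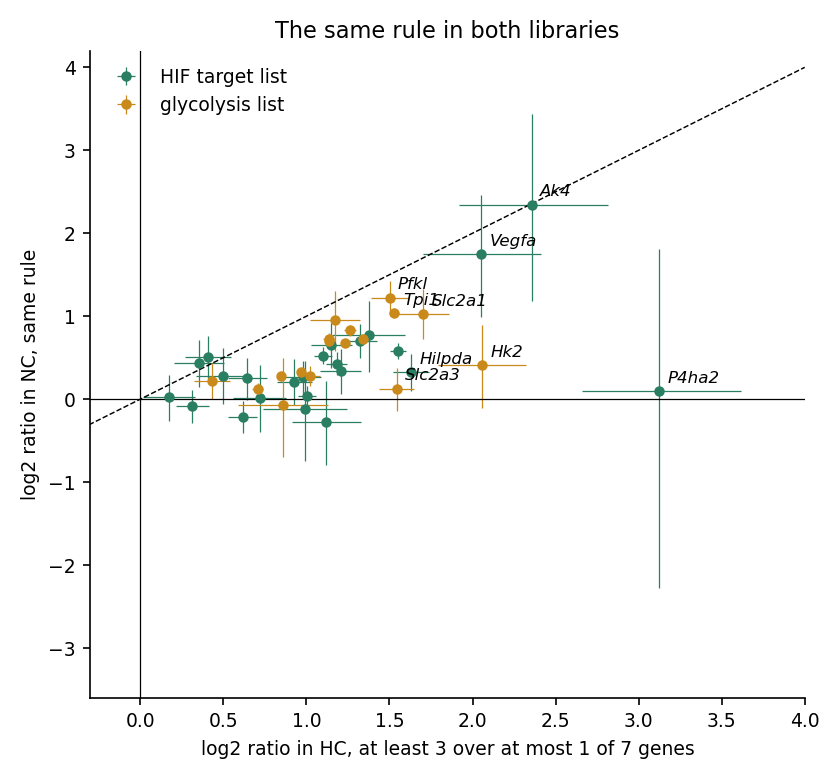
Log2 ratio of each gene counted in HC of the HIF target (green) and glycolysis (orange) lists under the same rule, in HC (horizontal axis) and NC (vertical axis), with exact 95% binomial intervals for counting error. The dashed line marks equal ratios. Most genes lie below it, with Slc2a3 at 1.54 in HC and 0.13 in NC, while Ak4 lies close to it (2.36 in HC and 2.34 in NC). Ak4, Vegfa and P4ha2 were under 5 CPM in both NC groups, and their NC intervals are wide.

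Set directly beside the NC cells chosen by the rule, the hypoxia-programme cells of HC had higher levels of the low-oxygen genes. Among 8748 genes, 460 (5.26%) were at least 1.5-fold higher in the HC cells and 609 (6.96%) lower. Of 24 HIF targets 18 were higher and 0 lower, with a median of 0.94, and of 17 glycolysis genes 13 were higher, with a median of 0.93, against -0.06 over all genes. P4ha2, Ak4, Vegfa and Gys1 reached 5 CPM only in the HC cells and so could only enter this count as higher. Between the comparison dividing cells of HC and NC, where 94 genes (1.09%) were higher and 140 (1.62%) lower, 1 of 21 HIF targets and 2 of 17 glycolysis genes were higher, with medians of 0.17 and 0.24. P4ha2, Ak4 and Vegfa were under 5 CPM in both comparison groups and were not counted there. Ribosome biogenesis genes ran the other way between the chosen cells, with 17 of 22 at least 1.5-fold lower in HC and a median of -0.94. They also did between the comparison cells, with 10 of 22 lower in HC and a median of -0.55. The chosen NC cells were deeper, with medians of 12011 UMIs in HC and 19347 UMIs in NC, and the part of depth in these values was not tested.

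HC cells that carried the programme without division genes had larger list medians for glycolysis and HIF targets than the dividing HC cells of all depths. There were 378 cells with at least 3 of the 7 genes and no UMI of Mki67 or Top2a, at a median of 6261 UMIs, and 2197 such cells with at most 1, at 4720 UMIs. Of 8640 genes 532 (6.16%) were at least 1.5-fold higher and 529 (6.12%) lower. All 18 glycolysis genes counted were higher, with a median of 1.65, and 19 of 24 HIF targets, with a median of 1.41. P4ha2, Ak4, Vegfa and Hk2 reached 5 CPM only in the chosen non-dividing cells and so could only enter the counts as higher. In the shallowest class of dividing HC cells, from 1020 to 7034 UMIs, the glycolysis median was 1.59 and the HIF target median 1.37. The part of depth in the larger medians was not tested. Hk2 had a log2 ratio of 2.06 in dividing cells and 2.90 in non-dividing cells. Prdm1 had 0.73 in dividing and 1.92 (0.98 to 2.85) in non-dividing cells, and 1.32 in the shallowest class of dividing cells. Cxcr4, a chemokine receptor, had 0.45 in dividing and 2.70 (1.79 to 3.65) in non-dividing cells. Both were under 5 CPM in the non-dividing comparison cells, Prdm1 at 2.13 CPM and Cxcr4 at 1.67 CPM. Cdkn1a had 1.12 in dividing and -0.10 (-1.01 to 0.72) in non-dividing cells. These differences between the ratios were not tested.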

How the data were processed

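Droplet libraries of single cells were made with a 10x Genomics 3′ kit, which tags RNA at its 3′ end. The authors deposited UMI counts per gene and barcode for 32285 genes, not normalized. Per the file headers, the matrices come from Cell Ranger 6.1.2. Cell Ranger 5.0.0, Seurat 3.2.3 and mm10 are named per the submitters' processing notes, which give them no role. The rule that kept barcodes before deposit is not stated.

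No upper limit on UMIs was set and no doublet caller was run. Counts were summed over the cells of each group and divided by the group's total to give CPM, so each cell weighs by its depth. No pseudocount was added. A gene was counted with at least 5 CPM in either group, the 9 rule genes left out, and called at 1.5-fold. Where identifiers shared a symbol, the one with more UMIs was used. A count of 0 allows up to 3 UMIs, which is 0.11 CPM in the hypoxia-programme cells and 0.075 CPM in the comparison dividing cells.

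The members, the 30 gene lists and the 12 marker lists were chosen with earlier results of these data known. Genes named in the text are the rule genes, the 12 highest and 12 lowest ratios among genes that reached 20 CPM in 1 or both groups (with antigen receptor segments and predicted, ribosomal protein and mitochondrial genes left out), up to 4 per list with the largest ratios, and a fixed set of T cell genes. Other genes, such as further members of the HIF target and glycolysis lists, were chosen after their values were seen.

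Alternatives changed the scaling (TMM factors from edgeR 4.0.16 and size factors from DESeq2 1.42.0, for scaling only), the cell weights, depth, cell cycle phase, the rule, the cell filter and the CPM floor. Leaving out shared barcodes, and following list medians under the alternatives, were added after seeing the data. The steps were tested on simulated data. The tools were numpy 2.4.6, pandas 2.3.3, scipy 1.17.1 and matplotlib 3.10.9 under Python 3.11.15, and R 4.3.3.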

Additional observations from a re-analysis of the deposited data

Results flagged for a closer look

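Anxa2 went opposite ways in the libraries under the same rule. Its log2 ratio was 0.74 in HC, at 355 CPM in hypoxia-programme cells and 213 CPM in comparison dividing cells, and -0.33 (-0.45 to -0.21) in NC, at 107 CPM in the NC cells chosen by the rule and 135 CPM in NC comparison dividing cells. The difference between the libraries was not tested.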

How the results depend on the processing

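No paired analysis was possible because each group is 1 library, and for the same reason no replicate could be left out. The glycolysis list kept 14 to 18 genes at least 1.5-fold higher (16 as reported) and the HIF target list 13 to 20 (19 as reported) over 16 alternatives, with medians of 0.97 to 1.38 and 0.95 to 1.23. Of the 43 named genes past 1.5-fold outside the rule, 42 had the same sign under every alternative and 23 stayed past 1.5-fold.

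The count of higher genes (167) was 79 at a floor of 20 CPM and 1323 with no floor, where fewer and more genes are counted. The count of lower genes (30) was 83 with cells thinned to 5000 UMIs, 104 with the groups chosen on thinned counts, 61 at 4 or more of the 7 genes, 68 with none of the 7 genes in the comparison, 6 at a floor of 20 CPM and 814 with no floor. The share of higher among called genes was 84.8% as reported, 70.9% with thinned cells, 67.9% with groups chosen on thinned counts and 61.9% with no floor. The cause was not tested except for the floors.

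The ribosome biogenesis median (0.14) was -0.20 with comparison cells weighted by depth, -0.14 by depth and G2/M share, and -0.20 with groups chosen on thinned counts. The heat shock median (0.12) was -0.0731, -0.0596 and -0.0435 under the same settings, and the fatty acid synthesis median (0.14) was -0.0101 under the last. The medians of nucleotide synthesis (0.08), amino acid stress (0.08) and ER stress (0.05) came as low as -0.16, -0.14 and -0.14. Ifng (0.60) was -0.0471 with depth weighting. The cause was not tested.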

Other observations

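Within HC, Gzmb and Tcf7 followed the number of the 7 genes in opposite directions. Gzmb was at 257 CPM in dividing HC cells with none of the 7 genes, 485 CPM at 3 and 592 CPM at 7, and Tcf7 at 225, 157 and 143 CPM. Gzmb was already at 578 CPM at 4 genes, and Tcf7 was lowest at 6 genes, at 129 CPM. Dividing NC cells went the same ways. Gzmb was there at 221 CPM with none of the genes, 333 CPM at 3 and 335 CPM at 4. Tcf7 was at 216, 175 and 148 CPM in the same NC cells. Median depth also rose with the number of genes, from 8007 UMIs at 0 genes to 14766 UMIs at 7 in HC. In NC it rose from 9304 UMIs at 0 genes to 19994 UMIs at 4. The part of depth in these Gzmb and Tcf7 levels was not tested. Xcl1, a chemokine that attracts dendritic cells, was at 27.8 CPM in hypoxia-programme cells and 28.7 CPM in comparison dividing cells of HC, and at 399 CPM in the NC cells chosen by the rule against 265 CPM in NC comparison cells.

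Further genes outside the lists were chosen after their values were seen. Pygl, which breaks down glycogen, was at 10.5 CPM in hypoxia-programme cells and 1.80 CPM in comparison dividing cells (log2 ratio 2.55), and at 1 UMI in the NC cells chosen by the rule. Itga7, a laminin-binding integrin chain, was at 5.18 against 0.425 CPM (3.61), Sdc4, a heparan sulfate proteoglycan, at 9.27 against 1.55 CPM (2.58), and Kdm5b, a histone H3 demethylase, at 46.6 against 21.8 CPM (1.10). Mif, a secreted cytokine, was at 1216 against 647 CPM (0.91). Pygl, Itga7 and Sdc4 reached 5 CPM only in hypoxia-programme cells and so could only be counted as higher. Under the same rule in NC the log2 ratio was 0.07 (-0.72 to 0.78) for Sdc4, 0.44 for Kdm5b and 0.67 for Mif. Itga7 rested on 1 UMI in the chosen NC cells. The class II gene H2-Eb1 was at 1.72 CPM in hypoxia-programme cells and 1.30 CPM in comparison dividing cells (log2 ratio 0.40, -0.20 to 0.999), and Cd74, the class II invariant chain, at 3.80 against 2.90 CPM (0.39, -0.01 to 0.78).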
